A study of Mus musculus with 6 samples.

Results

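The names described here are the mouse miRNA entries whose name carries no arm ending, that is, neither 5p nor 3p after the last hyphen. Members were chosen by their name and by a measured value: a mean over all 6 libraries of at least 0.5 reads per 1000000 reads on named miRNAs (RPM). By name, miR-451a, miR-484 and the miR-297, miR-466, miR-467 and miR-669 names had been set aside. The rule took 44 of the 2009 names in the deposited table, which lists 1978 mouse names and 31 predicted ones. Of the 323 mouse names without an arm ending, 14 were set aside by name and 265 lay below the limit, 143 of these with no read in any library. Just inside the limit stood miR-1668, miR-8114 and miR-706 with means of 0.60, 0.53 and 0.52 RPM, and just outside it miR-6481, miR-1953 and miR-8107 with 0.47, 0.44 and 0.40 RPM.

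The series measured miRNAs in 6 libraries from hearts of male mice, 3 labelled sham and 3 labelled as the ischemia and reperfusion (I/R) model. Every heart was isolated and perfused on a Langendorff system, which supplies the heart through the aorta outside the body. Sham hearts went on beating, while I/R hearts were stopped with a cardioplegic solution for 30 min and reperfused for 1 h. The labels number biological replicates 1 to 3 in each group but do not say whether a number marks a shared day or how many animals a library holds. The labels give no strain or age. Their library protocol describes kits for poly(A) mRNA, whereas the sample titles say miRNA-seq. In such bulk libraries, fewer cells of a type and less RNA per cell cannot be told apart.

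A miRNA is cut from a hairpin precursor, and each side of the hairpin can give a mature strand, named 5p or 3p. An entry without an arm ending is one for which the database records a single mature product. Such entries fall into kinds: relatives of well-known families such as let-7 and miR-30, and entries found in sequencing surveys, some of which overlap tRNA, snoRNA or repeat sequence. The seed, bases 2 to 8 of the mature strand, is the part that pairs with target mRNAs.

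For the results below the names were divided, by name only and after values had been seen, into 10 that belong to a family with arm-ended names (miR-378b, miR-378c, miR-378d, let-7j, let-7k, miR-30f, miR-101c, miR-28c, miR-142b and miR-1191a) and 34 others. RefSeq sequences (GRCm38.p6) were found for 36 of the 44. They were not found for miR-5099, miR-28c, miR-3470a, miR-1194, miR-5112, miR-3970, miR-6395 and miR-1668. The sequences that the results turn on follow, written 5′ to 3′ with the seed in capitals. The first 5 are the names without family whose level or shared letters are described most.
miR-5103: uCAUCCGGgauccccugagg
miR-6240: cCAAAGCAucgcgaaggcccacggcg
miR-3968: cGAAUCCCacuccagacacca
miR-3963: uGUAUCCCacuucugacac
miR-5100: uCGAAUCCcagcggugccucu

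The next set shows how the abundant family names differ from each other and from the arm-ended relative beside which they are counted.
miR-378c: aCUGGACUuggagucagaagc
miR-378b: cUGGACUUggagucagaaga
miR-378d: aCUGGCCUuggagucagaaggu
let-7j: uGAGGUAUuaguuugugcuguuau
let-7i-5p: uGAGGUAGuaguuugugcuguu
let-7k: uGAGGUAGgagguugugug
let-7e-5p: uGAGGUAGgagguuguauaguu
miR-30f: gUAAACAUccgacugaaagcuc
miR-30e-3p: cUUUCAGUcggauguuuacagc
miR-101c: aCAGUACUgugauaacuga
miR-101a-3p: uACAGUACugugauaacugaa

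The libraries held 7874103 to 9197869 reads recovered from the deposited values, and 799 to 867 names lay above 0 in each. A count of 3 reads corresponded to 0.326 to 0.381 RPM. The heart muscle markers fitted the tissue label: miR-1a-3p stood at 351573 to 382877 RPM, miR-499-5p at 5217 to 6248, miR-133a-3p at 798 to 1798 and miR-208a-3p at 147 to 181 RPM. Markers of other cells were miR-126a-3p of endothelium with 24426 to 31326 RPM, miR-143-3p and miR-145a-5p of smooth muscle with 35533 to 49735 and 32.6 to 78.0 RPM, and miR-150-5p of leukocytes with 63.1 to 83.2 RPM. The other leukocyte markers miR-142a-3p and miR-223-3p, the red blood cell markers miR-451a and miR-144-3p and the liver marker miR-122-5p reached at most 7.46 RPM in any library.

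Together the 44 names held 0.578% to 0.754% of the reads of a library, and the pool was uneven. The 3 most abundant, miR-378c, let-7j and miR-378d, made up 70.9% of it and the 10 most abundant 97.5%. Their summed level was 5788, 6013 and 5780 RPM in sham replicates 1 to 3 and 6244, 6506 and 7535 RPM in I/R replicates 1 to 3. The means were 5860 ± 132 and 6762 ± 683 RPM (SD, n = 3 each), and no I/R library was as low as a sham library. The difference of 901 RPM was 515 RPM without I/R replicate 3, and 452 RPM with median-ratio scaling.

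The family names carried most reads, while the others carried most of the difference. The 10 family names summed to 4730 ± 163 RPM in the sham libraries and 4894 ± 146 RPM in the I/R libraries (SD, n = 3 each) and differed by 165 RPM, close to the SDs. The 34 others summed to 1150, 1096 and 1147 RPM in sham and to 1423, 1706 and 2474 RPM in I/R. The sham sums lay close together, while single names did not. In sham replicate 2 miR-5099 was the highest of sham, 682 RPM, and miR-3968 and miR-3963 the lowest, 166 and 115 RPM. Of the difference of 737 RPM, miR-5099 gave 322, miR-3968 195, miR-3963 119 and miR-5103 80.1 RPM. Of these names, all but miR-5103 had groups that overlapped. The I/R sums were spread, with I/R replicate 3 highest. Replicate 3 of I/R also held the least miR-1a-3p, 351573 RPM beside 367970 to 382877 RPM in the other libraries. The heart muscle markers miR-133a-3p and miR-208a-3p were lowest there too, at 798 and 147 RPM. miR-499-5p was not, with 5310 RPM beside 5217 RPM in sham replicate 2. I/R replicate 3 held the most of the endothelial miR-126a-3p, 31326 RPM beside 24426 to 26946. It also held the most of the smooth muscle miR-143-3p, 49735 RPM beside 35533 to 46661. The other smooth muscle marker, miR-145a-5p, was not highest there, with 37.8 RPM beside 32.6 to 78.0 RPM in the other libraries. The part of these shifts in the sums was not tested. No test was made of these sums, since the names were chosen with earlier results known.

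**Figure D1:**
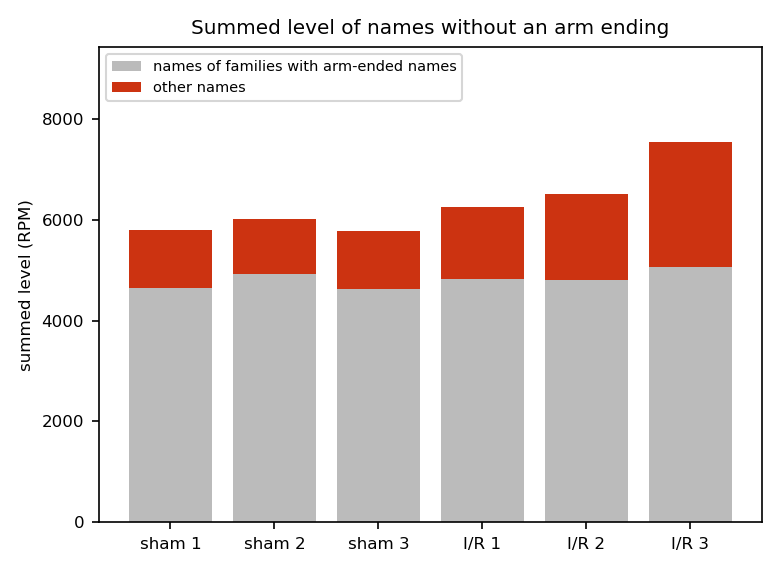
Summed level in RPM of the 44 names in each of the 6 libraries, with 1 stacked bar per library: grey for the 10 names of families that also have arm-ended names, red for the 34 others. The grey part stayed between 4633 and 5062 RPM, and the red part went from 1096 to 1150 RPM in sham to 1423 to 2474 RPM in I/R.

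The miR-378 names come first by level. The arm-ended miR-378a-3p, encoded in an intron of the metabolic coactivator gene Ppargc1b and abundant in heart, stood at 22617 to 27007 RPM. miR-378c was at 1854, 2003 and 1887 RPM in sham and 1925, 2017 and 2073 RPM in I/R libraries. These values overlapped between groups, and the log2 fold change was 0.07 (SE 0.08, limma adjusted p = 0.798 over all names, n = 3 each), with the sign turned under median-ratio scaling and the count models.

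miR-378d stood at 1053, 1025 and 986 RPM in sham and 981, 1014 and 934 RPM in I/R libraries. The lowest value was that of I/R replicate 3, in which miR-378a-3p was highest, and the groups overlapped. miR-378b stood at 82.2, 90.5 and 80.3 RPM in sham and 101, 88.4 and 96.0 RPM in I/R libraries, again with overlap. Log2 fold changes were -0.06 (SE 0.09) for miR-378d and 0.17 (SE 0.12) for miR-378b, with limma adjusted p of 0.806 and 0.661.

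The 3 names were small beside miR-378a-3p. Of the sum with miR-378a-3p, miR-378c held 7.13% to 7.88%, miR-378d 3.34% to 4.37% and miR-378b 0.354% to 0.409% over the 6 libraries. The share of miR-378d was lowest in I/R replicate 3 and ranged more widely than its level. The sequences overlap closely: miR-378c and miR-378b share 19 bases in a row, and miR-378c differs from miR-378d by A6C and C21G, counted from 1 at the 5′ end of miR-378c. The first of these lies in the seed. Their hairpins lie apart, at chromosome 14 from 46954830 to 46954928 opposite an intron of Samd4, at chromosome 11 from 88352773 to 88352864 opposite an intron of Msi2, and at chromosome 10 from 126710282 to 126710391 outside other annotated genes, for miR-378c, miR-378b and miR-378d in this order (GRCm38). How reads that match several of these names were counted is not given in the sources used here, so each level is uncertain taken singly.

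The let-7 names are relatives of a large family of miRNAs that rise as tissues mature. let-7j stood at 1400, 1560 and 1421 RPM in sham and 1564, 1433 and 1714 RPM in I/R libraries. The groups overlapped, and the log2 fold change was 0.10 (SE 0.10, limma adjusted p = 0.742). let-7j matches let-7i-5p but for G8U, which lies in the last base of the seed, and for its longer 3′ end. It held 9.74% to 10.3% of its sum with let-7i-5p, which stood at 12802 to 14955 RPM, a range over libraries that was narrow beside that of either level.

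let-7k was scarce, with 2.56 to 3.96 RPM over the 6 libraries, and held 4.17% to 5.45% of its sum with let-7e-5p. It differs from let-7e-5p by A17G and A19G and is shorter, with 19 bases. Its seed GAGGUAG is the family's own, shared with the let-7 names that end in 5p from let-7a to let-7g and let-7i, and with miR-98-5p. The hairpin of let-7j lies on chromosome 3 from 140028249 to 140028370 and that of let-7k on chromosome 5 from 147283189 to 147283298, both outside other annotated genes.

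miR-30f is named for the miR-30 family, which is abundant in heart muscle. It stood at 187, 174 and 193 RPM in sham and at 180, 180 and 181 RPM in I/R libraries, with a log2 fold change of -0.03 (SE 0.10, limma adjusted p = 0.924). Its mature sequence lies on the plus strand of chromosome 4 from 120772621 to 120772642, inside the Mir30e hairpin on the minus strand (120772606 to 120772697) and opposite an intron of Nfyc. It overlaps the mature miR-30e-3p on the other strand over 19 bases, as the printed letters show when one is read backwards and complemented.

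The level of miR-30f was that of miR-30e-3p in every library. miR-30e-3p stood at 195, 172 and 205 RPM in sham and 179, 176 and 175 RPM in I/R libraries. miR-30f held 49.0%, 50.2% and 48.5% of the sum of both in sham and 50.1%, 50.5% and 50.8% in I/R. Over all libraries it held 9189 reads against 9268, a share of 49.8% (95% Wilson interval 49.1% to 50.5%, counting error only). The share was near even and each library's interval held an even split, with bounds from 46.8% to 52.6%.

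miR-142b showed the same arrangement at low depth. This entry lies opposite the hairpin of miR-142, a miRNA of blood cells, and overlaps mature miR-142a-3p over 20 bases. It held 50 reads against 61 for miR-142a-3p over all libraries, a share of 45.0% (95% Wilson interval 36.1% to 54.3%). Neither name can be read singly, and how opposite strands were counted is not given in the sources used here. Among the 36 of the 44 names with a RefSeq sequence, no other overlapped another such mature sequence on the opposite strand by at least 15 bases. The names without a RefSeq sequence could not be checked.

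The remaining family names were scarcer and did not pass. miR-101c stood at 37.1, 37.7 and 42.2 RPM in sham and 38.6, 41.7 and 37.7 RPM in I/R libraries, with groups that overlapped. All of its 19 bases lie within miR-101a-3p, and it held 0.845% to 0.946% of the sum of both. miR-28c stood at 7.83 to 11.5 RPM over the 6 libraries. miR-1191a stood at 13.3, 11.8 and 10.6 RPM in sham and 15.5, 12.6 and 13.0 RPM in I/R libraries, again with overlap.

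**Figure D2:**
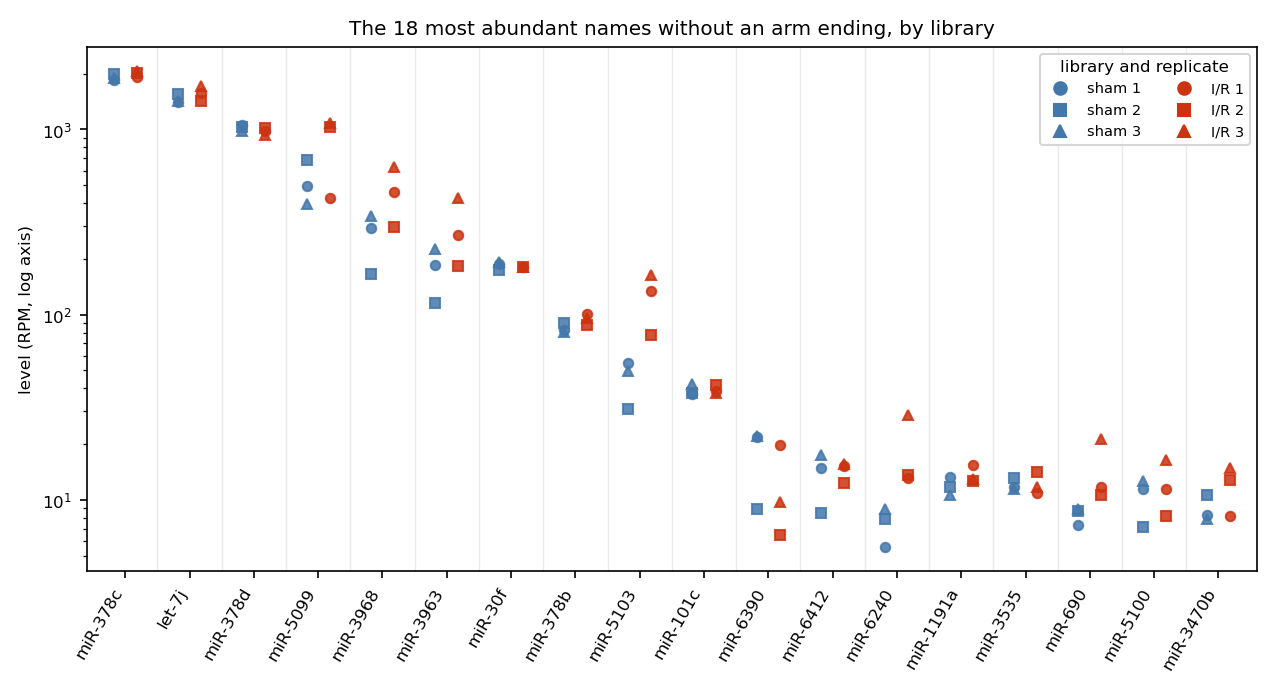
Level in RPM on a log axis of the 18 tested names with a mean of at least 10 RPM, with 1 point per library, blue for sham and red for I/R, and the shape giving the replicate number. The points of miR-378c, let-7j, miR-378d, miR-30f, miR-378b and miR-101c sit close together, while those of miR-5099, miR-3968, miR-3963, miR-5103, miR-6390 and miR-6240 are spread, as for miR-5103 from 30.9 to 164 RPM.

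The comparison of I/R with sham was read from 1 fit over the 409 names that averaged 1 RPM or more over all libraries and were detected in 3 or more of them. Of the 44 names, 35 passed this filter, which looks at all libraries whatever their group, and 9 were not tested. In limma without the replicate number, 0 of the 409 names passed an adjusted p of 0.05, a background of 0%, and 0 of the 35. At an unadjusted p under 0.05, 4 of the 35 were higher (11.4%) beside a background of 7.09%, and 0 were lower. Groups did not overlap, with I/R higher, for 3 of the 35 (8.57%) beside a background of 11.2%, and with I/R lower for 0 beside 3.91%. Neither the non-overlap count nor the median log2 fold change, 0.12 for the 35 and 0.10 for the 409, set these names apart. Fold changes were positive for 26 of the 35 (74.3%) and 287 of the 409 (70.2%). With median-ratio scaling this fell to 20 of the 35 (57.1%) and 214 of the 409 (52.3%), since that scaling moves the median of all names by -0.09 on the log2 scale.

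With the replicate number as a block, limma called 4 of the 409 names, a background of 0.978%, and all 4 are names without an arm ending: miR-5103, miR-3968, miR-3963 and miR-6240. All 4 were called higher and 0 of the 35 were called lower, and the direction of the 4 was the same under every scaling and count model run. edgeR on the recovered reads with the same block called 4 of the 35 as well. The names here were put together with these calls known, so the count is no independent evidence about them. DESeq2 without the block called miR-5103 and miR-6240, a background of 0.489%, and edgeR without the block called 0, where an unadjusted p under 0.05 was reached by 11 higher and 15 lower names.

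**Figure D3:**
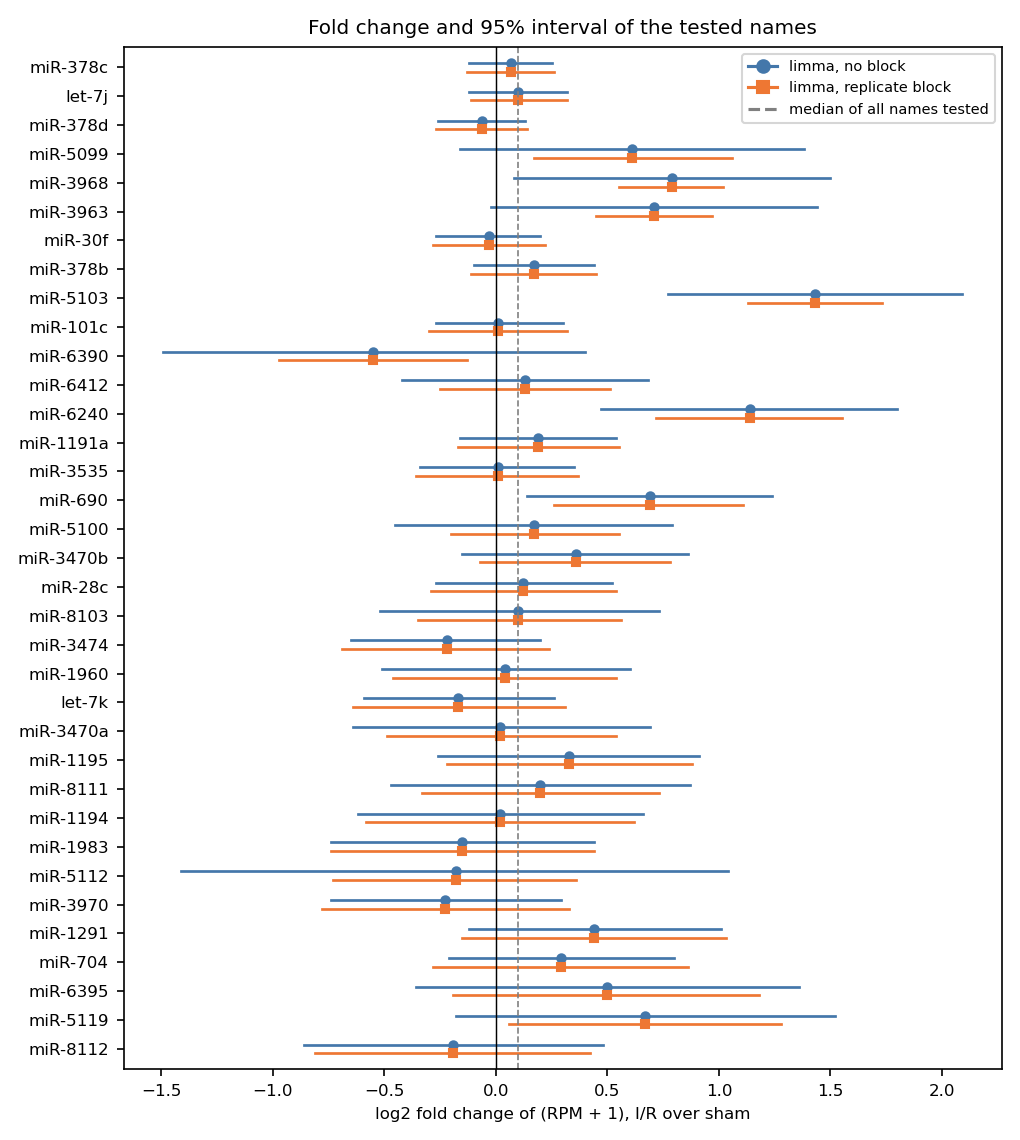
Log2 fold change of (RPM + 1), I/R over sham, of the 35 tested names, ordered by level, with 95% intervals from limma without the block (blue) and with the replicate block (orange), and a dashed line at the median of all names, 0.10. With the block the intervals of miR-5103, miR-6240, miR-3968 and miR-3963 are narrower, as for miR-3968 from 0.08 to 1.5 without it and from 0.55 to 1.02 with it.

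miR-5103 had the largest fold change of the 35. It stood at 55.0, 30.9 and 49.4 RPM in sham and 134, 77.9 and 164 RPM in I/R libraries. The groups did not overlap, and replicate 2 was the lowest in both. The level in I/R was 2.43, 2.52 and 3.32 times that in the sham library of the same number. The log2 fold change was 1.43, with limma adjusted p = 0.370 without the block (SE 0.29) and 3.32e-05 with it (SE 0.14). Its hairpin lies on chromosome 1 from 34433121 to 34433199 on the minus strand, in an exon of the lincRNA Gm37233 on the same strand, and no role of this RNA is stated here.

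miR-6240 stood at 5.54, 7.91 and 8.89 RPM in sham and 13.2, 13.6 and 28.6 RPM in I/R libraries, from 51 to 72 reads in sham libraries. The groups did not overlap, and I/R replicate 3 stood far above the other I/R libraries. The log2 fold change was 1.14, with limma adjusted p = 0.598 without the block (SE 0.29) and 0.00458 with it (SE 0.19). The call was lost without the replicate 3 libraries (limma adjusted p = 0.0523 with the block) and under the block with median-ratio scaling (0.0513). The hairpin lies on chromosome 5 from 114851948 to 114852064 with no other annotated gene, and its mature sequence of 26 bases has the seed CAAAGCA, shared with miR-330-3p.

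miR-3968 and miR-3963 moved side by side. miR-3968 stood at 294, 166 and 343 RPM in sham and 462, 298 and 628 RPM in I/R libraries. miR-3963 stood at 185, 115 and 226 RPM in sham and 269, 184 and 429 RPM in I/R libraries. In both names replicate 2 was lowest and replicate 3 highest in each group, so that the groups overlapped.

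Within numbers, I/R lay above sham by 1.57, 1.79 and 1.83 times for miR-3968 and by 1.45, 1.60 and 1.90 times for miR-3963. The limma adjusted p was 0.598 for both without the block, and 0.00108 and 0.00458 with it, at log2 fold changes of 0.79 and 0.71. Under the block with median-ratio scaling miR-3963 no longer passed (limma adjusted p = 0.0513), while miR-3968 did (0.0219). In the fit without the block, the log2 fold changes of miR-3968 and miR-3963 were 0.48 and 0.43 without sham replicate 2, and 0.53 and 0.39 without I/R replicate 3. miR-3963 held 36.8% to 40.9% of the sum of both over the 6 libraries, a narrow range beside a span of 166 to 628 RPM for miR-3968.

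The letters of the pair are alike in part. They share aucccacu, 8 bases in a row, and miR-3968 shares cgaauccca, 9 bases, with miR-5100. Such stretches of at least 8 bases joined 7 of the 630 pairs among the 36 sequences (1.11%), and 456 of 69751 pairs among 374 arm-ended names above the same level (0.654%). The other pairs were the 3 of miR-378b, miR-378c and miR-378d, let-7j with miR-1960, and miR-8112 with miR-8114. The hairpin of miR-3968 lies on chromosome 11 from 115447961 to 115448060, opposite an exon of Trim80, and that of miR-3963 on chromosome 3 from 151023792 to 151023862 with no other annotated gene.

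miR-5100 did not move with them in the same proportion. It stood at 11.5, 7.12 and 12.7 RPM in sham and 11.5, 8.19 and 16.4 RPM in I/R libraries, with the groups overlapping and a log2 fold change of 0.17 (SE 0.27, limma adjusted p = 0.820) that turned to -0.06 without sham replicate 2 or I/R replicate 3. Its share of the sum with miR-3968 was 3.77%, 4.11% and 3.58% in sham and 2.42%, 2.68% and 2.54% in I/R. These shares did not overlap between groups, and they were looked at after the levels had been seen, with no test. The hairpin lies on chromosome 11 from 60728663 to 60728726 in an intron of Mief2.

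miR-5099 was the most abundant of the 34 others. It stood at 496, 682 and 394 RPM in sham and 428, 1032 and 1077 RPM in I/R libraries. Replicates 2 and 3 were high in I/R, but I/R replicate 1 lay below sham replicates 1 and 2, so the groups overlapped. The log2 fold change was 0.61, with limma adjusted p = 0.628 without the block (SE 0.34) and 0.223 with it (SE 0.21). The block fit gave 1.02 without the replicate 1 libraries (limma adjusted p = 0.00225), 0.62 without those of replicate 2 (0.000954) and 0.19 without those of replicate 3 (0.895). Over all 409 names these fits called 7, 21 and 6 higher and 1, 4 and 2 lower, in this order. With so few libraries, their p-values lean on the variance shared over all names. Without the block the log2 fold change of miR-5099 was 1.04 without I/R replicate 1 and 0.38 without I/R replicate 3.

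miR-690 stood at 7.28, 8.70 and 8.89 RPM in sham and 11.8, 10.6 and 21.2 RPM in I/R libraries. The groups did not overlap, and I/R replicate 3 was far above the rest. The log2 fold change was 0.69 (SE 0.24), with limma adjusted p = 0.598 without the block and 0.153 with it, and without I/R replicate 3 it was 0.40. The block fit without the replicate 2 libraries called it (0.90, limma adjusted p = 0.000653), and those without replicate 1 or 3 did not. Over all 409 names the fit without replicate 2 called 21 higher and 4 lower. The hairpin of miR-690 lies on chromosome 16 from 28599935 to 28600043 in an intron of Fgf12, and its 22 mature bases also occur exactly in transcripts of 3 other genes.

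miR-6390 had the lowest fold change of the 35, and it did not pass. It stood at 21.9, 8.93 and 22.1 RPM in sham and 19.8, 6.48 and 9.78 RPM in I/R libraries. Replicate 2 was lowest in both groups, and the groups overlapped. The log2 fold change was -0.55, with limma adjusted p = 0.678 without the block (SE 0.42) and 0.223 with it (SE 0.20). With 1 library left out and no block it ranged from -0.95 (without sham replicate 2 or I/R replicate 1) to -0.22 (without I/R replicate 2), and also moved to -0.35 and -0.34 without sham replicates 1 and 3. The block fit without the replicate 2 libraries called it lower, at -0.62 (limma adjusted p = 0.0348). Over all 409 names that fit called 21 higher and 4 lower.

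The other names above 10 RPM did not pass either, and their groups overlapped. miR-6412 stood at 8.48 to 17.4 RPM in sham and 12.4 to 15.7 RPM in I/R libraries. miR-3535, whose mature sequence lies in the snoRNA gene Gm24148 within the nucleolin gene Ncl, stood at 11.5 to 13.2 and 10.9 to 14.1 RPM. miR-3470b stood at 7.90 to 10.6 and 8.17 to 14.9 RPM, with a log2 fold change of 0.36 (SE 0.22, limma adjusted p = 0.661) that was 0.59 without I/R replicate 1 and 0.19 without I/R replicate 3. For 24 of the 35 tested names (68.6%) the 95% interval without the block stayed within a 2-fold change up or down, on the log2(RPM + 1) scale, which understates the change of scarce names.

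**Figure D4:**
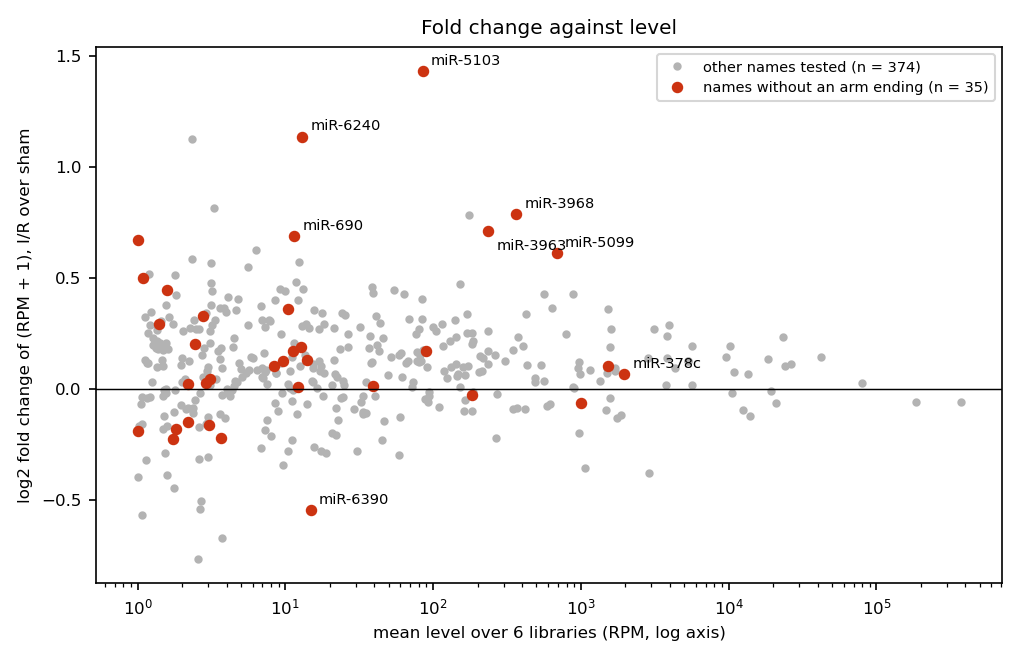
Log2 fold change of (RPM + 1), I/R over sham, against the mean level over 6 libraries in RPM on a log axis, for the 35 tested names without an arm ending (red) and the other 374 tested names (grey). miR-5103 and miR-6240 at 1.43 and 1.14 lie at the top of the plot, and miR-3968, miR-3963 and miR-5099 lie above most names of like level.

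The median spread between replicates was wider for the names without an arm ending, in sets that were not matched for level. Over those with a mean of at least 10 RPM, the SD of log2(RPM + 1) within a group had a median of 0.18 in sham and 0.29 in I/R for 18 names, and of 0.15 and 0.13 for 212 arm-ended names. The spread was not shared by all of these names. miR-6390 had SDs of 0.70 and 0.75, miR-3968 of 0.55 and 0.54 and miR-3963 of 0.50 and 0.61. In contrast miR-378c had 0.06 and 0.05 and miR-378d 0.05 and 0.06, below the arm-ended medians. These differences in spread were described and not tested.

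The libraries did not take turns evenly as highest or lowest. Replicate 2 was lowest in both groups for 9 of the 35 (25.7%), among them miR-3968, miR-3963, miR-5103, miR-6390, miR-6412, miR-5100 and miR-30f, and for 15.9% of 365 arm-ended names. Replicate 3 was highest in both groups for 12 of the 35 (34.3%) and for 14.8% of the arm-ended names. I/R replicate 3 was the highest I/R library for 21 of the 35 and for 48.2% of the arm-ended names. Whether replicate numbers mark a shared step is not given in the labels, and the part of this in the results was not tested.

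The sequences were then set beside those of 436 arm-ended names above the same level, of which 374 were in the RefSeq table and 355 had a hairpin there. Of the 36 sequences found here, 8 (22.2%) were shorter than 20 or longer than 24 bases, beside 8 of 374 (2.14%). The shortest was miR-1928 with 17 bases, and miR-6240, miR-3535 and miR-1291 had 26. The predicted folding energy of the hairpin per base had a median of -0.348 kcal/mol over 28 hairpins and of -0.438 kcal/mol over 355.

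Weak predicted folds were more frequent. An energy weaker than -0.3 kcal/mol per base was found for 9 of 28 hairpins (32.1%), beside 5 of 355 (1.41%). The hairpins of let-7j (-0.202), miR-6240 (-0.211), miR-3968 (-0.289) and miR-6390 (-0.291 kcal/mol per base) were among these. In contrast that of miR-5103 stood at -0.499, with 90.0% of its mature bases paired. The annotated precursors were longer, with a median of 109.5 bases beside 83, and the length enters the energy per base. These shares describe the annotation, and no test was made of them.

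**Figure D5:**
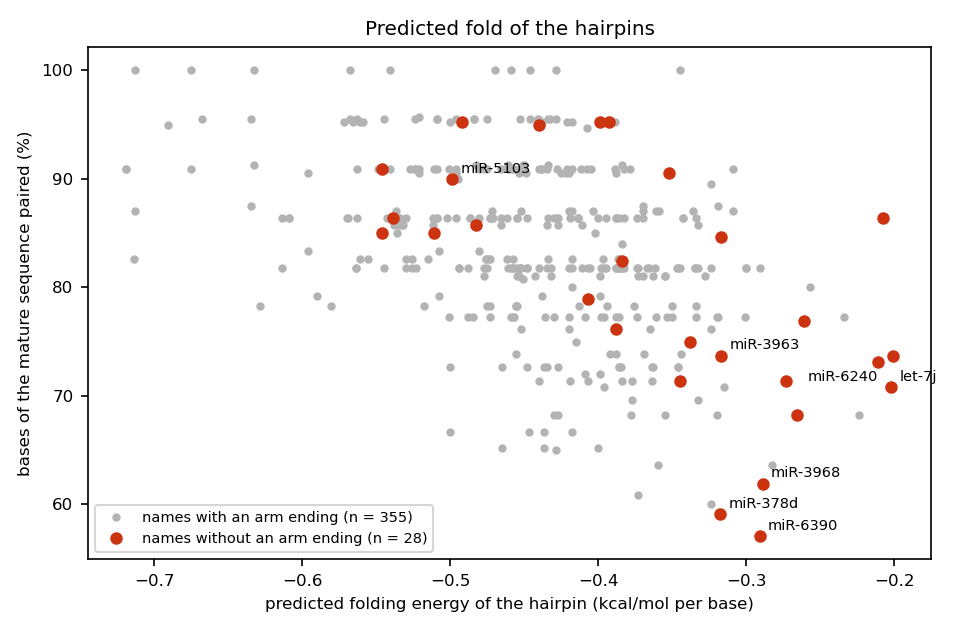
Predicted folding energy of the hairpin in kcal/mol per base against the percentage of mature bases paired, for 28 names without an arm ending (red) and 355 arm-ended names (grey). Red points spread to the weak end on the right, where let-7j, miR-6240, miR-3968 and miR-6390 lie, and miR-5103 lies among the grey points.

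Matches to other transcripts were also more frequent. GENCODE M21 transcripts of genes elsewhere held the mature sequence exactly, in sense, for 4 of 36 (11.1%) and with at most 1 mismatch for 9 of 36 (25.0%), beside 11 (2.94%) and 23 (6.15%) of 374 arm-ended names. A match in at least 10 genes was found for miR-3470b, miR-706 and miR-690 (8.33%), beside 0.267%. miR-3470b, printed next with miR-706 because their letters recur most, lay exactly in transcripts of 546 genes and miR-706 in those of 208.
miR-3470b: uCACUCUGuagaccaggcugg
miR-706: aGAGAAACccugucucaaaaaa

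The names with the larger fold changes differed in these matches. miR-5103, miR-6240, miR-3968 and miR-3963 had no sense match with at most 1 mismatch in a GENCODE transcript of another gene. miR-690, at a log2 fold change of 0.69, lay in transcripts of 3 other genes exactly and of 10 with at most 1 mismatch. miR-5099, at 0.61, had no RefSeq sequence and was not searched. The letters CGANUCC, searched in sense, stood in miR-3968 and miR-5100, 2 of 36 (5.56%), and in 2 of 374 arm-ended names (0.535%). Mature sequences ending in CCA, the letters with which every mature tRNA ends, were miR-3968 and miR-6390 (5.56%), beside 3 of 374 (0.802%). A match of such short letters is a description and does not give a read's origin, and neither does the lack of a match. Only GENCODE transcripts were searched, and genome copies and tRNA genes were not.

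Small RNA genes held 2 of the 36 on the same strand (5.56%), miR-3535 in Gm24148 and miR-1291 in Snora34, beside 12 of 374 (3.21%). snoRNAs guide the chemical modification of ribosomal RNA. miR-1291 stood at 0.741 to 1.85 RPM in sham and 1.59 to 2.29 RPM in I/R libraries, with overlap between the groups.

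The remaining names were scarce. The 17 tested names with a mean under 10 RPM ranged from miR-28c to miR-8112, and none of them passed in limma without or with the block. miR-5112 showed the widest spread among replicates, with 0.544, 1.02 and 4.57 RPM in sham and 0.610, 0.611 and 3.56 RPM in I/R libraries, replicate 3 being high in both groups. The 9 untested names ran from miR-142b to miR-706 with means of 0.519 to 0.991 RPM. When the filter was lowered to 0.5 RPM, all 44 names were fitted and 0 passed in limma. An unadjusted p under 0.05 was reached by 5 of the 44 on the higher side, beside a background of 7.94%, and by 0 on the lower side.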

How the data were processed

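Small RNA was measured in 6 libraries, 3 sham and 3 I/R, grouped and numbered by the labels. The submitters' processing notes list fastp 0.23.0, bcl2fastq 2.19.1.403 and the build mm10. Aligner, miRNA annotation, strand setting and the handling of reads that match several names are not given in the sources used. The authors deposited 1 signal value per mature name and library, and their table calls the values FPKM. All 6 columns summed to 1 total, and every value was a whole multiple of its column's smallest value above 0, as reads per 1000000 over a constant 23 nt would be. Whole reads were recovered for 100% of the values (tolerance 0.01 reads), 7874103 to 9197869 per library, and levels are given in RPM. No source used here mentions molecular identifiers, so intervals and floors cover counting error only.

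I/R was tested against sham on log2(RPM + 1) in R 4.3.3 with limma 3.58.1 and its mean-variance trend, two-sided, with Benjamini-Hochberg adjustment over all 409 kept names and a threshold of 0.05. The design had been written for FPKM, and the test on log values was kept. Alternatives were edgeR 4.0.16 and DESeq2 1.42.0 on recovered reads, pseudocounts, filters, scalings, the replicate block and left-out libraries. The script was tested on simulated data. Libraries of the same number deviated from their group means together, with correlations of 0.14, 0.28 and 0.16 (other pairs -0.19 to 0.07), and on this basis alone the numbers were treated as pairs. Without the 44 names the 3 correlations were 0.13, 0.22 and 0.08 (other pairs -0.22 to 0.11), so that this decision rests in part on these names. Sham replicate 1 with I/R replicate 3, at 0.11, then lay above the pair of replicate 3 libraries, at 0.08. Deviations from a group mean cancel within the group, so correlations of same and other numbers are not independent of each other. All p-values from the block fit assume this pairing, which was taken from the same data that the fit tests.

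Named with a value for each library, or the range per group, were members with a mean of at least 10 RPM, those called with or without the block, and those whose groups did not overlap. Members that share a sequence feature with these were named too, and miR-28c, miR-5112, miR-142b, let-7k and miR-1291 were named after their values were seen. Sequences came from RefSeq (GRCm38.p6), gene overlaps and transcripts from GENCODE M21, and hairpins were folded with RNAfold 2.7.2. The members and lists were chosen with earlier results of these data known. P-values measure only the spread between these 6 libraries.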

Additional observations from a re-analysis of the deposited data

How the results depend on the processing

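Over 21 alternatives, the number of these names that passed was 0 under 13. With the replicate block it was 4, and the same 4 in edgeR with the block; it was 2 under the block with median-ratio scaling, 2 in DESeq2 and 1 without a filter (miR-5103). Over all names fitted, 409 or, without a filter, 1259, the counts were 4, 4, 2, 2 and 1 under these. Without sham replicate 2 the count was 1 of 409 (miR-27a-5p, no member). The block without 1 replicate number, chosen after seeing the data as was edgeR with the block, called 5, 7 and 3 of these names without numbers 1, 2 and 3, and over all names 6 to 21 higher and 1 to 4 lower. Of 18 named members, 12 kept their direction under all 21. miR-378c turned to -0.03 with median-ratio scaling with or without the replicate block and in DESeq2, and to -0.05 in edgeR with and without it. let-7j came to -0.01 in edgeR with and without the block. miR-101c came to -0.08 with median-ratio scaling (with the block too) and in DESeq2, -0.13 with quantile normalization, -0.06 with totals without the 10 most abundant names, -0.10 in both edgeR fits, and, with libraries left out, between -0.05 and 0.10. miR-3535 came to -0.09, -0.14, -0.06 and -0.10 under these scalings and edgeR, -0.08 in DESeq2, -0.11 in edgeR with the block, and, with libraries left out, between -0.09 and 0.08. miR-6412 came to -0.15 without sham replicate 2, -0.05 in the block without replicate 2, -0.03 in edgeR and -0.02 in DESeq2, and miR-5100 to -0.06 without sham replicate 2 or I/R replicate 3. With 1 library left out, miR-6412 reached 0.32 and miR-5100 0.4 at most, and miR-101c 0.07. Quantile normalization and edgeR shifted the median of all names by -0.11. The cause of these turns was not tested. With libraries left out, the summed difference of 901 RPM ranged from 515 to 1160 RPM. A floor of 3 reads is 0.326 to 0.381 RPM, near the level of the 9 names below the filter.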

Other observations

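Of the names set aside by the rule, miR-484, which is made from a capped precursor, stood at 66.8, 56.4 and 60.6 RPM in sham and 70.8, 73.2 and 85.6 RPM in I/R libraries. The red blood cell miRNA miR-451a stood at 6.09, 4.97 and 3.09 RPM in sham and 2.07, 4.77 and 1.4 RPM in I/R libraries. miR-466g, the most abundant of the other names set aside, had a mean of 0.213 RPM. The let-7j level was close to that of let-7c-5p, of whose sum with let-7j it held 47.2% to 55.6%, a wider range than beside let-7i-5p.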
